A study of Homo sapiens with 9 samples.

Results

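The transcripts described here are DDIT4 and 9 genes through which it and other signals act on mTOR complex 1 (mTORC1), namely DDIT4L, SESN1, TSC1, TSC2, RHEB, MTOR, RPTOR, DEPTOR and AKT1S1. They were taken by name from a table of gene counts, and all 10 were found among the 27671 genes of the table. All 10 also passed the filter on low counts that left 15551 genes for testing. Messenger RNA was sequenced from A498, a long-established cell line of human origin derived from clear cell renal cell carcinoma (ccRCC). The study asked how depletion of the bHLH-PAS transcription factors ARNT or BMAL1 alters gene expression in ccRCC cells, where the hypoxia-inducible factor HIF2α drives transcription. ARNT is the classical partner of HIF1α and HIF2α, and BMAL1 pairs with CLOCK in the circadian clock. Cells of all groups were transduced with a lentiviral pLKO.1 vector for a short hairpin RNA and kept under puromycin, and their genotype is labelled WT. The group shControl carried a control hairpin, shBMAL1 a hairpin against BMAL1 and shARNT a hairpin against ARNT, with 3 biological replicates each and 9 libraries in all. Nothing in the labels shows more than 1 hairpin per target, and they do not give the time between infection and harvest, so effects of a hairpin other than on its target cannot be told apart from those of the depletion.

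mTORC1 is a protein kinase complex that promotes protein synthesis and growth and restrains autophagy when nutrients, energy and growth factors are available. Its catalytic subunit is mTOR (MTOR) and its substrate-binding subunit is raptor (RPTOR), while DEPTOR and PRAS40 (AKT1S1) are inhibitory partners. The small GTPase RHEB activates the kinase at the lysosome, and the complex of TSC1, TSC2 and TBC1D7 switches RHEB off. DDIT4 encodes REDD1, which is induced by hypoxia through HIF and also by ATF4, and which restrains mTORC1 through the TSC complex. DDIT4L encodes its relative REDD2. SESN1 encodes a sestrin, a stress-induced protein that restrains mTORC1 through the GATOR complexes. In ccRCC the HIF pathway is active because VHL is lost, and inhibitors of mTOR are used in its treatment. Transcript levels do not report the activity of the kinase.

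Library totals were even, from 35269857 to 36099083 counts. The level of a gene is its count relative to the library size, in CPM, after TMM scaling (trimmed mean of M values), whose factors ran from 0.932 to 1.11. The targeted transcripts were lower in their own depletions. BMAL1, listed under its older symbol ARNTL, was left at 30.9% of its control level in shBMAL1, and ARNT at 18.8% in shARNT. The reverse pairs also moved, since ARNT had a log2 fold change of -0.65 in shBMAL1 and ARNTL of 0.55 in shARNT. Of 7 markers of ccRCC and kidney epithelium, all 7 averaged over 1 CPM in the 9 libraries, and their summed level lay between 7918 and 7979 CPM in shControl, between 5865 and 6346 CPM in shBMAL1 and between 2076 and 2236 CPM in shARNT. Most of this sum is VIM, with means of 5973, 4308 and 812 CPM in that order, and the markers did not move together. CA9, a HIF target, had means of 76.4, 30.2 and 1.06 CPM, PAX8 of 36.0, 40.7 and 100.3 CPM and KRT18 of 566, 472 and 563 CPM. CDH6 had means of 199, 179 and 29.3 CPM, KRT8 of 1099, 1011 and 653 CPM and PAX2 of 9.84, 6.95 and 6.70 CPM. Summed levels of 3 blood markers and of 3 endothelial markers did not exceed 0.364 CPM and 0.323 CPM in any library, with CD3E and HBB at 0 throughout. Of 3 fibroblast markers, LUM was at 0 and COL1A1 averaged 237 CPM in shControl, 35.7 CPM in shBMAL1 and 45.4 CPM in shARNT. The part of these shifts in the results below was not tested.

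The start sites of 4 members are shown because HIF with ARNT binds the hypoxia response element, with the core ACGTG or GCGTG, and BMAL1 with CLOCK binds the E-box CACGTG, which contains ACGTG. The sequences are the 250 bases before the start site from RefSeq on GRCh38.p14, written 5′ to 3′ on the strand of the gene, and capitals mark every match of the 3 motifs on either strand. They lie at chr10:72273674-72273923 (DDIT4, plus strand), chr16:2047735-2047984 (TSC2, plus strand, the first of 2 start sites), chr7:151519896-151520145 (RHEB, minus strand) and chr9:132944617-132944866 (TSC1, minus strand).
DDIT4: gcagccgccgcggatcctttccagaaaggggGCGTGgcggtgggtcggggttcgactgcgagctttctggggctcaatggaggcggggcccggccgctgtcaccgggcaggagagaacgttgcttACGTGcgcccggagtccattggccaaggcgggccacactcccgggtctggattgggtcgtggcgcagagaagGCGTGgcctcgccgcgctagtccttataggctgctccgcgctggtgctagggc
TSC2: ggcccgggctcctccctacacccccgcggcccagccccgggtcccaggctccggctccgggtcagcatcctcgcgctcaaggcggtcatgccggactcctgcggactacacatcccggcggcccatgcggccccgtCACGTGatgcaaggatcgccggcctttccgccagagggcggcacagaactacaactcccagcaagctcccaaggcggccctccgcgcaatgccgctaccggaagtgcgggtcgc
RHEB: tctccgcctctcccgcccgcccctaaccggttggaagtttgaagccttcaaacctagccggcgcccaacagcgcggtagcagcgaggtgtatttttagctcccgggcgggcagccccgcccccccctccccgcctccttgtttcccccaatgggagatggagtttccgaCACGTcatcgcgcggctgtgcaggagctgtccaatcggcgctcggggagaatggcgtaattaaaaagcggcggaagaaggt
TSC1: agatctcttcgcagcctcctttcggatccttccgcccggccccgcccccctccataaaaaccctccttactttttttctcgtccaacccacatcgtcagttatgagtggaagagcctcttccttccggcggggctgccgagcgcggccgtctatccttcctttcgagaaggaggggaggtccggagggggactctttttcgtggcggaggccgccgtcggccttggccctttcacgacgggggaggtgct

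DDIT4 had 3 matches, all on the strand of the gene: GCGTG from 219 to 215 and from 53 to 49 bases before the start and ACGTG from 125 to 121. TSC2 held an E-box from 114 to 109 bases before its first start site, and since this motif is its own reverse complement the same 6 letters also count as ACGTG on each strand. RHEB held ACGTG on the opposite strand, read as CACGT from 81 to 77, and TSC1, like the second window of TSC2, held none of the motifs. Windows were listed for 8 members, all but DEPTOR and AKT1S1, with 11 windows in all. Of the remaining 4, RPTOR held 2 GCGTG matches on the opposite strand, MTOR held 1 on its own strand, SESN1 held 1 in the second of 3 windows and DDIT4L held none. Among all 35116 RefSeq windows of this length, 18.5% held ACGTG, 32.2% held GCGTG, 43.2% held either and 6.34% held the E-box, each on either strand. A match of 5 letters is therefore common, and it does not show binding.

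How the depletions altered the members was addressed in edgeR with its quasi-likelihood test over all 15551 genes. A gene is called where its p, adjusted after Benjamini and Hochberg over all genes tested, was under 0.1, and this adjusted p is given for single genes throughout. In shARNT against shControl, 9 of 10 members were called, 6 higher and 3 lower. Over all genes 81.8% were called in that comparison, 40.5% higher and 41.3% lower, so this count is near the background. The median size of the log2 fold change, taken without sign, was 1.11 for the members and 0.66 for all genes, and the median with sign was 0.22 and -0.01. In shBMAL1 against shControl, 6 members were called, 3 higher and 3 lower, where 63.4% of all genes were called, 31.9% higher and 31.5% lower. The median size was 0.25 for the members and 0.32 for all genes, and the median with sign was -0.03 and 0.00. In the direct contrast of shARNT with shBMAL1, 9 members were called, 6 higher and 3 lower, against 81.2% of all genes, 40.1% higher and 41.1% lower. Here the median size was 0.68 for the members and 0.64 for all genes. The comparisons with shControl share their control libraries. The log2 fold change of the direct contrast sets shARNT against shBMAL1 without them, although they entered the scaling, filter and estimate of spread. Fitted on the 6 depleted libraries alone, the direct contrast also called 9 members. In each comparison the members called were those whose libraries did not overlap between the groups. The share of all genes without overlap was not counted, so this is not a trait particular to the members.

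**Figure D1:**
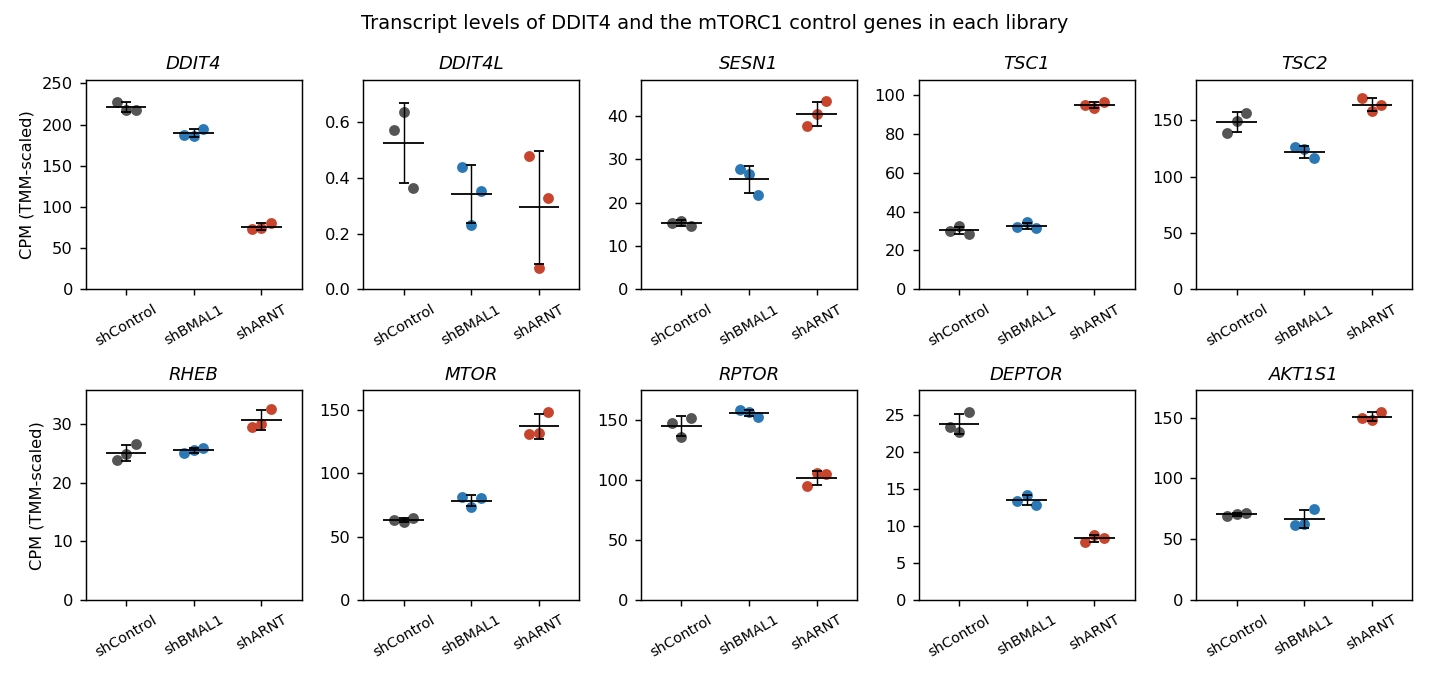
Level of each member in each library, in TMM-scaled CPM on a linear axis from 0, with a separate scale for each gene. Points are libraries, horizontal lines are group means and bars are 1 SD (n = 3). DDIT4 and DEPTOR lie lowest in shARNT, SESN1, TSC1, MTOR and AKT1S1 lie highest there, and the DDIT4L groups overlap.

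DDIT4 (chromosome 10, 74033678 to 74035794, GRCh37), which encodes REDD1, fell in both depletions and far more in shARNT. Its level was 228, 218 and 218 CPM in the shControl libraries, 188, 187 and 195 CPM in shBMAL1 and 72.9, 75.0 and 80.8 CPM in shARNT. The 3 groups formed 3 separate steps with no overlap. In shARNT 34.4% of the control level remained (log2 fold change -1.54, SE 0.0445, adjusted p = 2.92e-17). In shBMAL1 85.8% remained (-0.22, SE 0.0429, adjusted p = 1.74e-04). The direct contrast gave -1.32 (95% interval -1.41 to -1.22, adjusted p = 3.58e-16). Among all genes tested, 11.1% had a lower log2 fold change than DDIT4 in shARNT and 31.8% in shBMAL1. The call in shBMAL1 held without any 1 library, with log2 fold changes from -0.24 to -0.20, and of the alternatives run only a test against a minimum fold change of 1.5 lost it. In bulk RNA, fewer cells with a transcript and less of it per cell cannot be told apart.

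DDIT4L (chromosome 4, 101107027 to 101111939), which encodes REDD2, was scarcely detected, with 19, 21 and 12 counts in shControl, 15, 8 and 12 in shBMAL1 and 19, 3 and 13 in shARNT. The groups overlapped in every comparison. Its log2 fold change was -0.82 in shARNT (95% interval -1.84 to 0.19, adjusted p = 0.127) and -0.61 in shBMAL1 (95% interval -1.63 to 0.40, adjusted p = 0.294). A difference of DDIT4L was thus not detectable at this depth. It was called in shARNT when shControl replicate 3 (-1.03, adjusted p = 0.0894) or shARNT replicate 1 (-1.36, adjusted p = 0.0376) was left out. The same held with an offset for GC content, which also rescaled whole libraries (-1.02, adjusted p = 0.0615). Without shARNT replicate 2, the library with 3 counts, its value was -0.37 (adjusted p = 0.470).

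The transcripts tied to DDIT4 by induction or binding moved in differing directions. EPAS1, which encodes HIF2α, had means of 345, 233 and 74.2 CPM in shControl, shBMAL1 and shARNT, and so fell in both depletions as DDIT4 did. HIF1A had means of 140, 421 and 390 CPM in the same order and rose in both. ATF4, a stress-response activator, had means of 169 CPM, 198 CPM and 240 CPM, with log2 fold changes of 0.23 in shBMAL1 and 0.50 in shARNT. TXNIP, which encodes a protein that binds REDD1, averaged 152 CPM, 83.5 CPM and 68.4 CPM, and fell in both. Whether any of these transcripts bears on the level of DDIT4 was not tested.

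The genes with a profile most like that of DDIT4 were found by the root mean square difference of log2 CPM, each gene centred on its own mean over the 9 libraries, among 11224 genes. The smallest values were 0.0422 for TXNDC17, 0.0453 for CDC42BPB, 0.0498 for FAM114A1, 0.0516 for ARSA and 0.0533 for P4HB. TXNDC17 encodes a thioredoxin-like protein, CDC42BPB a kinase downstream of CDC42, ARSA the lysosomal arylsulfatase A and P4HB protein disulfide isomerase. Their log2 fold changes lay between -1.61 and -1.46 in shARNT and between -0.31 and -0.15 in shBMAL1. The member nearest to DDIT4 was DEPTOR, at 0.301, which was place 1079 in this order.

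SESN1 (chromosome 6, 109305512 to 109416049), the sestrin, moved opposite to DDIT4 in both depletions. The shControl libraries had 15.3, 15.9 and 14.6 CPM, the shBMAL1 libraries 27.7, 26.7 and 21.9 CPM and the shARNT libraries 37.8, 40.4 and 43.3 CPM. Again the groups formed 3 steps without overlap, here upward. SESN1 rose 2.65-fold in shARNT (log2 fold change 1.41, SE 0.0819, adjusted p = 2.53e-12) and 1.66-fold in shBMAL1 (0.73, SE 0.0843, adjusted p = 3.03e-07), and the depletions differed by 0.67 (adjusted p = 1.28e-07). Its relative SESN2, another sestrin, averaged 14.5 CPM in shControl. It rose to 22.2 CPM in shBMAL1 (0.61) and to 45.4 CPM in shARNT (1.65). SESN3 was at 2.76 CPM in shControl, fell by 0.61 in shBMAL1 and was not called in shARNT (-0.11, adjusted p = 0.581).

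TSC1 (chromosome 9, 135766735 to 135822261), the scaffold of the TSC complex, had the largest rise of the 10 members in shARNT. Its levels were 29.9, 32.4 and 28.6 CPM in shControl, 32.1, 34.6 and 31.4 CPM in shBMAL1 and 94.9, 93.1 and 96.4 CPM in shARNT. The shBMAL1 and shControl libraries overlapped, while every shARNT library was above both. The rise in shARNT was 3.13-fold (log2 fold change 1.65, SE 0.0562, adjusted p = 4.25e-16), and 3.66% of all genes tested had a higher log2 fold change. In shBMAL1 the value was 0.11 (95% interval -0.01 to 0.23, adjusted p = 0.118). It was called under scaling by library size alone (0.16, adjusted p = 0.0292), and also when shControl replicate 2 (0.16, adjusted p = 0.0424) or shBMAL1 replicate 3 (0.14, adjusted p = 0.0773) was left out.

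TSC2 (chromosome 16, 2097968 to 2139492), the subunit with the GTPase-activating domain for RHEB, moved in opposite directions. Values were 139, 149 and 157 CPM in shControl, 126, 124 and 116 CPM in shBMAL1 and 170, 158 and 164 CPM in shARNT. The libraries did not overlap, but the lowest shARNT library was close to the highest control library. TSC2 fell to 82.5% of control in shBMAL1 (log2 fold change -0.28, SE 0.0483, adjusted p = 5.55e-05). It rose to 111% in shARNT (0.14, SE 0.0478, adjusted p = 0.00982). This call was lost with the offset for GC content (0.08, adjusted p = 0.127). That offset also moved the log2 fold changes of all genes in shARNT, by a median of -0.08. The parts of GC content and of scaling in the lost call were not separated. The direct contrast was 0.42 (95% interval 0.32 to 0.52, adjusted p = 1.00e-07). TSC2 shares 784 exon bases with PKD1 on the opposite strand, its values were fractions of reads in 9 of 9 libraries, and the use of strand in counting was not stated. PKD1 had log2 fold changes of -1.36 in shARNT and -0.23 in shBMAL1, and its part in the TSC2 values was not tested.

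RHEB (chromosome 7, 151163098 to 151217206), the GTPase that activates mTORC1, rose slightly in shARNT. It was at 23.8, 24.9 and 26.6 CPM in shControl, 25.1, 25.7 and 25.9 CPM in shBMAL1 and 29.4, 30 and 32.7 CPM in shARNT. The shARNT libraries lay above all others, and the shBMAL1 libraries lay within the control range. RHEB rose 1.22-fold in shARNT (log2 fold change 0.29, SE 0.0638, adjusted p = 3.70e-04), and its value in shBMAL1 was 0.02 (95% interval -0.11 to 0.16, adjusted p = 0.780). Of the listed partners of these genes, TBC1D7, the remaining TSC complex subunit, and RHEBL1, a relative of RHEB, were chosen after their values were seen. TBC1D7 averaged 14.3 CPM in shControl. It rose to 35.5 CPM in shARNT (log2 fold change 1.31, adjusted p = 9.97e-13) and to 16.9 CPM in shBMAL1 (0.25, adjusted p = 0.00924). RHEBL1 averaged 0.332 CPM in shControl and 0.409 CPM in shBMAL1, and it rose to 1.24 CPM in shARNT (1.89, adjusted p = 2.41e-05).

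**Figure D2:**
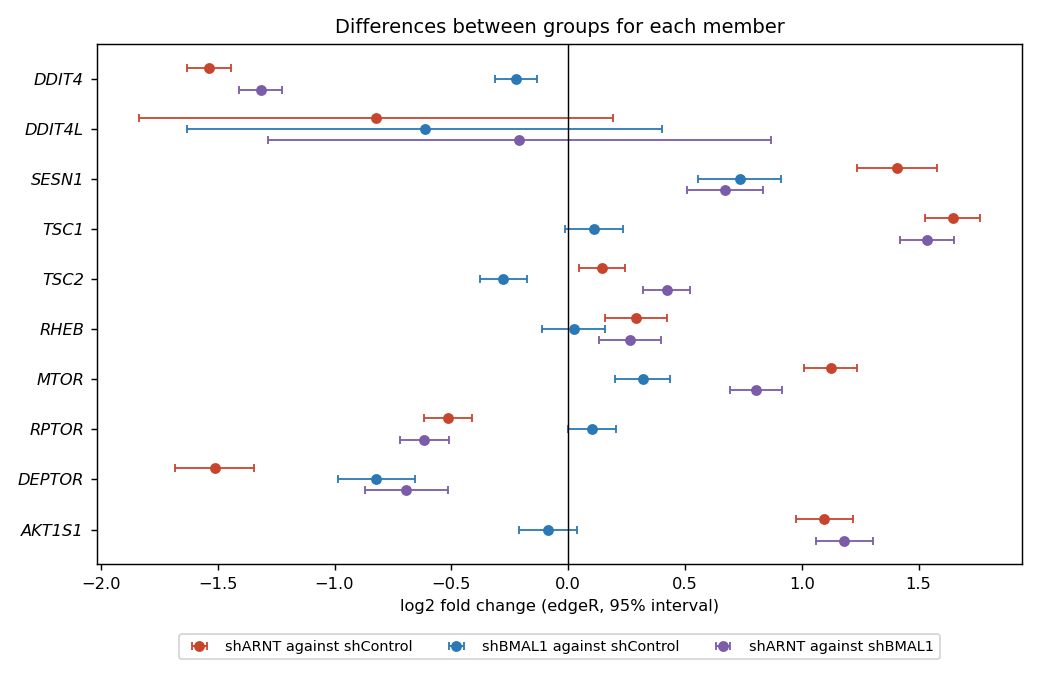
Log2 fold change of each member in the 3 comparisons, from edgeR, with 95% intervals. Intervals are narrow except for DDIT4L, whose 3 intervals include 0, and TSC1 and AKT1S1 have large values only in the comparisons that involve shARNT.

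MTOR (chromosome 1, 11166592 to 11322613), the kinase, rose in both depletions. Its libraries had 62.9, 61.2 and 64.6 CPM in shControl, 81.1, 73.7 and 80.5 CPM in shBMAL1 and 131, 131 and 149 CPM in shARNT. The 3 groups were separate. The rise was 2.18-fold in shARNT (log2 fold change 1.12, SE 0.0548, adjusted p = 1.40e-13) and 1.25-fold in shBMAL1 (0.32, SE 0.0556, adjusted p = 5.70e-05), a difference of 0.80 between depletions (adjusted p = 2.61e-11). MTOR shares exon bases on the opposite strand with MTOR-AS1, which held 11 to 61 counts per library, against 2015 to 5907 for MTOR.

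RPTOR (chromosome 17, 78518619 to 78940171), which encodes raptor, went the other way from MTOR in shARNT. It stood at 148, 136 and 152 CPM in shControl, 158, 156 and 153 CPM in shBMAL1 and 94.7, 106 and 105 CPM in shARNT. Each shARNT library was below the other 6, and the lowest shBMAL1 library exceeded the highest control library by less than 1 CPM. RPTOR fell to 70.1% of control in shARNT (log2 fold change -0.51, SE 0.0493, adjusted p = 7.68e-09). The call in shBMAL1 was marginal (0.10, SE 0.0488, adjusted p = 0.0833). It was lost without shControl replicate 2 (0.06, adjusted p = 0.391), without shBMAL1 replicate 1 (0.09, adjusted p = 0.176), without shBMAL1 replicate 2 (0.10, adjusted p = 0.167), with upper quartile scaling (0.07, adjusted p = 0.199) and in DESeq2 (0.09, adjusted p = 0.116).

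The inhibitory partners of mTORC1 diverged. DEPTOR (chromosome 8, 120885957 to 121063157) fell in both depletions, with 23.5, 22.7 and 25.4 CPM in shControl, 13.3, 14.2 and 12.9 CPM in shBMAL1 and 7.87, 8.74 and 8.44 CPM in shARNT. The groups were separate, and of the 10 members DEPTOR had the largest called fall in shBMAL1. In shARNT 35.02% of the control level remained (log2 fold change -1.51, SE 0.0816, adjusted p = 7.24e-13) and in shBMAL1 56.6% (-0.82, SE 0.0789, adjusted p = 2.48e-08), a difference of -0.69 (adjusted p = 2.63e-07). In shBMAL1, 8.31% of all genes tested had a lower log2 fold change.

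AKT1S1 (chromosome 19, 50372290 to 50381716), which encodes PRAS40, rose only in shARNT among the comparisons with shControl, and the direct contrast also separated the depletions (1.18, 95% interval 1.06 to 1.30, adjusted p = 1.74e-13). It had 69.2, 70.4 and 71.7 CPM in shControl, 61.7, 62.6 and 74.9 CPM in shBMAL1 and 149, 148 and 155 CPM in shARNT. The third shBMAL1 library stood above the control range and the other two below it. In shARNT AKT1S1 rose 2.14-fold (log2 fold change 1.10, SE 0.0582, adjusted p = 5.67e-13). Its value in shBMAL1 was -0.08 (95% interval -0.21 to 0.04, adjusted p = 0.237), and without shBMAL1 replicate 3 it was called (-0.18, adjusted p = 0.00420). AKT1S1 shares 151 exon bases with TBC1D17 on the opposite strand, whose log2 fold change in shARNT was -0.57.

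Levels of different genes were compared per kilobase of the main transcript. In shControl DDIT4 was the most abundant member at 127 ± 3.28 CPM per kilobase (SD, n = 3), followed by AKT1S1 at 39.7 ± 0.714, TSC2 at 23.1 ± 1.37 and RPTOR at 21.2 ± 1.19. The TSC2 and RPTOR libraries overlapped, and all other neighbours in the order were separate. RHEB followed at 12.3 ± 0.679 CPM per kilobase, DEPTOR at 9.29 ± 0.527, MTOR at 7.21 ± 0.195, TSC1 at 3.52 ± 0.224, SESN1 at 2.70 ± 0.107 and DDIT4L at 0.201 ± 0.0550. In shBMAL1 DDIT4 stayed first at 109 ± 2.57 CPM per kilobase, RPTOR stood before TSC2, MTOR before DEPTOR, and SESN1 overlapped TSC1. In shARNT the order was led by AKT1S1 at 84.8 ± 2.08 CPM per kilobase, with DDIT4 second at 43.6 ± 2.34. There MTOR, RHEB and RPTOR lay within 14.9 to 15.7 CPM per kilobase on average and overlapped, and DEPTOR was ninth at 3.25 ± 0.172. The first place in shARNT depended on the length used: with the longest transcript of each gene AKT1S1 averaged 41.4 CPM per kilobase, below DDIT4, and their libraries overlapped.

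**Figure D3:**
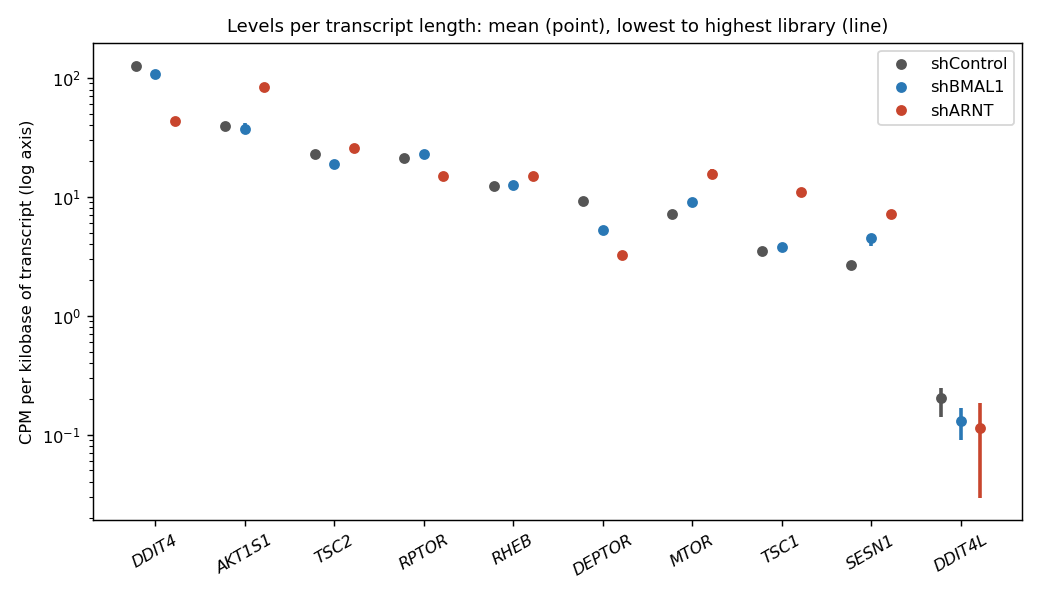
TMM-scaled CPM per kilobase of main transcript on a log axis, for the 10 members in the order of their shControl level. Points are group means and lines run from the lowest to the highest of 3 libraries. DDIT4 leads in shControl and shBMAL1 and AKT1S1 leads in shARNT, while DDIT4L lies below all others. With the longest transcript as length AKT1S1 lies below DDIT4 in shARNT.

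Ratios within a library do not depend on its scaling. The pairs were chosen after the values were seen, so they are given without a test. Per transcript length, TSC1 over TSC2 was 0.153 ± 0.0145 in shControl, 0.199 ± 0.00912 in shBMAL1 and 0.432 ± 0.0124 in shARNT (SD, n = 3). RPTOR over MTOR was 2.94 ± 0.0925, 2.54 ± 0.150 and 0.948 ± 0.0675 in the same order. The transcript of raptor thus went from well above that of the kinase to near parity with it in shARNT. DEPTOR over MTOR was 1.29 ± 0.0399, 0.586 ± 0.0608 and 0.208 ± 0.0169, with no overlap between groups. AKT1S1 over MTOR was 5.50 ± 0.133 in shControl and 5.41 ± 0.268 in shARNT, where both rose, and 4.16 ± 0.417 in shBMAL1. With the longest transcript of each gene as length, an alternative chosen after seeing the data, these became 2.77, 2.73 and 2.10. DDIT4 over TSC2 was 5.49 ± 0.469 in shControl, 5.70 ± 0.388 in shBMAL1 and 1.71 ± 0.120 in shARNT. DDIT4 over SESN1 dropped in steps, from 47.0 ± 2.03 to 24.5 ± 3.81 and 6.10 ± 0.132.

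**Figure D4:**
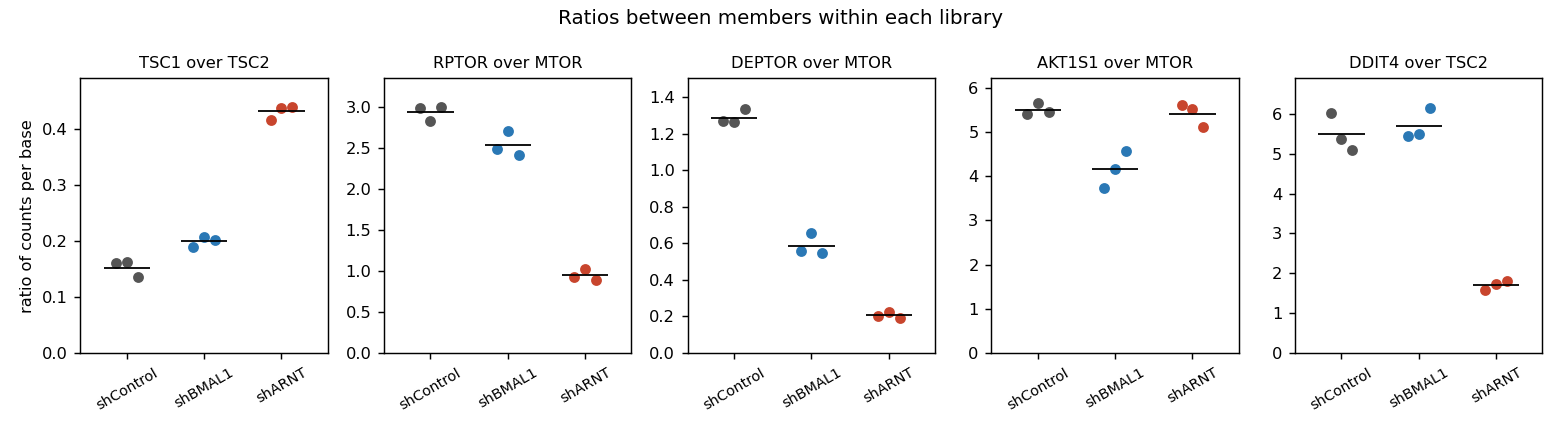
Ratios of counts per base between pairs of members within each library, on linear axes from 0. Points are libraries and lines are means of 3 libraries. In shARNT the TSC1 to TSC2 ratio is highest at 0.432 on average, and the RPTOR to MTOR, DEPTOR to MTOR and DDIT4 to TSC2 ratios are lowest.

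Beyond the members, 75 other genes of the mTORC1 pathway were listed by role, and all 75 were tested. In shARNT against shControl 63 of them were called (84.0%), 41 higher and 22 lower, with a median log2 fold change of 0.16, where all genes had 81.8% and -0.01. In shBMAL1 58 were called (77.3%), 30 higher and 28 lower, with a median of 0.02. Among all genes that share was 63.4%. In the direct contrast 64 were called (85.3%), 40 higher and 24 lower, with a median of 0.22. Taken without sign, the median size was 0.63, 0.27 and 0.55 in the order given, below 0.66, 0.32 and 0.64 for all genes.

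Among the GTPases and scaffolds that recruit mTORC1 to the lysosome (Rag GTPases, Ragulator and folliculin), 10 of 13 rose and 2 fell in shARNT, with a median log2 fold change of 0.67. In shBMAL1 5 rose and 3 fell. These are 92.3% and 61.5% of the group, beside 81.8% and 63.4% of all genes, of which 40.5% and 31.9% were higher. SLC38A9, the lysosomal arginine sensor, was at 15.6, 15.5 and 16.7 CPM in shControl, 16.6, 15.6 and 13.96 CPM in shBMAL1 and 55.0, 53.4 and 52.2 CPM in shARNT. It rose by 1.75 in shARNT (SE 0.0667, adjusted p = 2.56e-15), and its value in shBMAL1 was -0.05 (adjusted p = 0.571). In the same group RRAGA, a Rag GTPase chosen after its values were seen, fell by 1.04 in shARNT (edgeR, adjusted p = 5.82e-15). Of 12 genes for GATOR1, GATOR2 and KICSTOR, which relay amino acid supply to the Rag GTPases, 7 rose and 2 fell in shARNT and 5 rose and 4 fell in shBMAL1. Of 5 sestrins and amino acid sensors beside SESN1, 3 rose and 1 fell in shARNT, and 4 rose and 1 fell in shBMAL1. The shares called were 75.0% in each depletion for the former and 80.0% and 100% for the latter. That last group includes GATSL1, the older name of CASTOR2 in the table, whose reads can be shared with near-identical copies, so its value is uncertain and is not given.

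**Figure D5:**
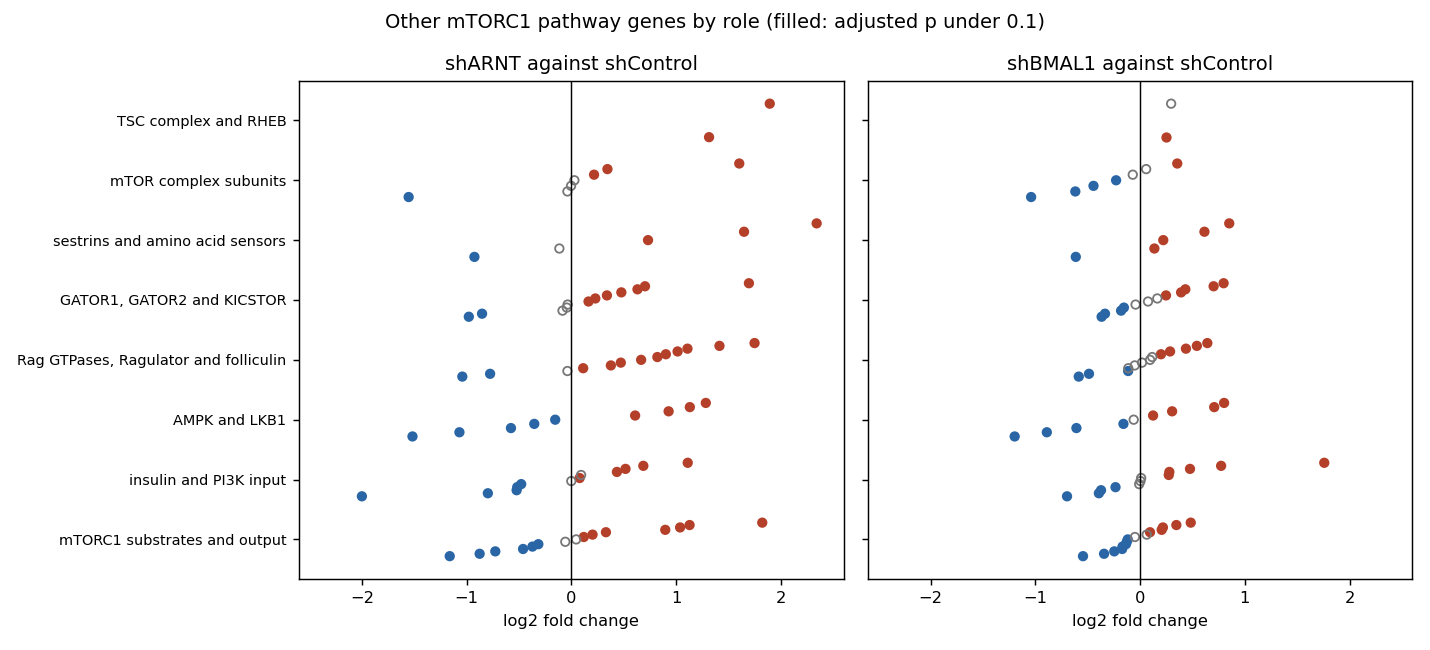
Log2 fold changes of the 75 other mTORC1 pathway genes against shControl, by role group, with 1 point per gene. Filled points are called (red higher, blue lower) and open points are not. The lysosomal group of 13 genes has 10 higher and 2 lower in shARNT, and 5 higher and 3 lower in shBMAL1. Among all genes tested, 40.5% were higher in shARNT and 31.9% in shBMAL1.

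The remaining subunits of the mTOR complexes were mixed. MLST8, a subunit of both complexes, averaged 64.8 CPM in shControl and 66.1 CPM in shARNT (0.03, adjusted p = 0.633), and fell to 47.6 CPM in shBMAL1 (-0.44, adjusted p = 8.38e-07). RICTOR, which defines mTORC2 as raptor defines mTORC1, had 34.1, 25.0 and 25.7 CPM in shControl, 36.8, 36.9 and 34.8 CPM in shBMAL1 and 81.7, 89.8 and 86.2 CPM in shARNT. It rose by 1.60 in shARNT (adjusted p = 3.53e-13), where RPTOR fell. PRR5L, a partner of mTORC2, fell by 1.55 in shARNT (SE 0.108, adjusted p = 4.30e-11) and by 0.23 in shBMAL1 (adjusted p = 0.0562). Its relative PRR5 fell by 1.04 in shBMAL1 (SE 0.0894, adjusted p = 4.88e-09) and averaged 17.03 CPM in shControl and 16.99 CPM in shARNT (adjusted p = 0.976). In all, 3 of the 7 genes in this group rose and 1 fell in shARNT (57.1% called, 81.8% of all genes), and 1 rose and 4 fell in shBMAL1 (71.4% called, 63.4% of all genes).

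Genes for energy and growth factor inputs were called in both directions. Of 9 genes for AMPK and LKB1, which restrain mTORC1 when energy is low, 4 rose and 5 fell in shARNT and 4 rose and 4 fell in shBMAL1. PRKAB2, a regulatory subunit of AMPK, was at 119, 113 and 105 CPM in shControl, 47.9, 50.8 and 48.4 CPM in shBMAL1 and 37.3, 40.5 and 40.1 CPM in shARNT, and it fell by 1.20 in shBMAL1 (SE 0.0543, adjusted p = 3.06e-13) and by 1.52 in shARNT (adjusted p = 1.05e-15). CAB39, a partner of LKB1, rose by 0.80 in shBMAL1 (SE 0.0759, adjusted p = 1.98e-08). Of 12 genes for insulin and PI3K input, 5 rose and 5 fell in shARNT, and 5 rose and 4 fell in shBMAL1. All genes were called at 81.8% in shARNT and 63.4% in shBMAL1, against 100% and 88.9% of the AMPK and LKB1 genes and 83.3% and 75.0% of the insulin and PI3K genes. IRS2, an adaptor of the insulin receptor, had 261, 271 and 274 CPM in shControl, 254, 253 and 305 CPM in shBMAL1 and 61.8, 65.96 and 73.8 CPM in shARNT. Its log2 fold change was -2.00 in shARNT (SE 0.0669, adjusted p = 3.03e-16) and 0.01 in shBMAL1 (adjusted p = 0.901).

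Downstream of the complex, 7 of 15 substrate and output genes rose and 6 fell in shARNT, and 5 rose and 8 fell in shBMAL1. The group was called at 86.7% in each, beside 81.8% and 63.4% of all genes. Its median size of log2 fold change, without sign, was 0.46 in shARNT and 0.17 in shBMAL1, below the 0.66 and 0.32 of all genes. RPS6KB1, which encodes the S6 kinase S6K1, had 23.7, 25.7 and 25.9 CPM in shControl, 33.3, 31.1 and 31.5 CPM in shBMAL1 and 88.4, 88.7 and 89.4 CPM in shARNT. It rose by 1.82 in shARNT (SE 0.0539, adjusted p = 4.18e-17) and by 0.35 in shBMAL1 (adjusted p = 2.46e-05). EIF4EBP1, the translational repressor 4E-BP1 and chosen after its values were seen, averaged 39.97 CPM in shControl. It fell to 21.8 CPM in shARNT (-0.88, adjusted p = 9.41e-11) and to 35.5 CPM in shBMAL1 (-0.17, adjusted p = 0.0238).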

How the data were processed

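RNA from 9 samples of A498 cells was sequenced as stranded mRNA libraries with paired-end reads on a BGISEQ-500. Per the study's methods, reads were aligned to GRCh37 with SeqMan NGen and gene counts came from ArrayStar, whereas the submitters' processing notes name STAR, DESeq2 and hg38. Which produced the table, the annotation release, the use of strand and whether reads or pairs were counted are not given in the sources used here. The deposited values are expected counts, total reads per gene made by the authors without normalization, some of them fractions. A value of 0.05 stood for no reads and was set to 0. Of 27716 rows, 45 names held more than 1 row and were summed, and counts were rounded.

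All 9 libraries entered 1 fit in edgeR 4.0.16 (R 4.3.3) with the group as the only factor, TMM scaling, filterByExpr, glmQLFit and glmQLFTest. The common dispersion was 0.00311. SE and intervals at 95% are from that fit. Replicates are the biological replicates of the labels. Whether they were separate infections or cultures was not stated, so p-values measure the spread between these samples. Replicates differed by more than counting noise (chi-square per gene 4.87 to 22.6). The highest values involved shControl replicate 1, at 22.6 against replicate 2 and 21.3 against replicate 3. Those other control replicates gave 5.24 against each other. Positions, lengths and GC content came from GENCODE release 44 on GRCh37, and promoter windows from RefSeq on GRCh38.p14. No position was converted between builds.

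The members and lists were chosen with earlier results of these data known. Named genes are the members, the targeted genes, EPAS1, HIF1A, ATF4, TXNIP, SESN2, SESN3, MLST8, RICTOR, the 2 largest called rises and falls of the pathway list in each contrast (average log2 CPM 2 or more), and the 5 genes most like DDIT4. Some genes of the rule are not reported here. Alternatives were DESeq2 1.42.0, other scalings and filters, a GC offset, a replicate block, halved counts, other thresholds, a fit on 6 libraries and leaving out each library. The GC offset was fitted in each library with its overall level included, so it also rescaled whole libraries on top of TMM.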

Additional observations from a re-analysis of the deposited data

Results flagged for a closer look

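The depletions differed from each other in 9 of 10 members, by the direct contrast of shARNT with shBMAL1 in edgeR, fitted with all 9 libraries. A fit on the 6 depleted libraries alone also called 9 members. DDIT4 (-1.32), DEPTOR (-0.69) and RPTOR (-0.61) were lower in shARNT on the log2 scale. TSC1 (1.54), AKT1S1 (1.18), MTOR (0.80), SESN1 (0.67), TSC2 (0.42) and RHEB (0.27) were higher. Adjusted p ran from 3.58e-16 for DDIT4 to 8.08e-04 for RHEB, and 81.2% of all genes were called in this contrast. TSC2 moved in opposite directions against shControl (0.14 in shARNT and -0.28 in shBMAL1). The rise was not called with the GC offset, which also rescaled whole libraries.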

How the results depend on the processing

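No member that was called changed direction under any alternative. Over members, comparisons and alternatives, 570 values kept their status, whether called or not called, while 19 lost a call and 8 gained a call. With a minimum fold change of 1.5 tested, 6966 of all 15551 genes were called for shARNT, 2110 for shBMAL1 and 6831 for the direct contrast. Of the 10 members, 6 were called for shARNT, 2 for shBMAL1 and 5 for the direct contrast. Of the 75 other pathway genes, 36, 7 and 31 were called in the same order. When each library was left out in turn, members called ranged from 9 to 10 for shARNT and from 5 to 8 for shBMAL1, and were 9 for the direct contrast. The calls that turned on 1 library were DDIT4L in shARNT and TSC1, RPTOR and AKT1S1 in shBMAL1, as given with those genes. Halving the counts removed DDIT4L from the genes tested. Scaling by library size alone moved the median of all genes by 0.24 (shARNT), 0.05 (shBMAL1) and 0.19 (direct contrast), and the share of calls that were higher to 60.5%, 55.8% and 58.6%. The GC offset, for the 91.3% of genes with a value, brought that share to 43.2%, 43.9% and 45.7%. It also rescaled whole libraries and moved the median of all genes by -0.08, -0.07 and -0.07. The parts of GC content and of scaling in these shares were not separated. With the longest transcript as length, AKT1S1 was at 19.3 CPM per kilobase in shControl and TSC2 at 17.3, so AKT1S1 then lay below RPTOR.

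No label says that a replicate number marks a shared culture or day. Deviations of same-numbered libraries correlated from -0.14 to 0.19, and those of other-numbered libraries from -0.18 to 0.24. The deviations are centred within each group, which ties them to each other, so these values cannot exclude a pairing. With the number as a replicate block, genes called numbered 12684 for shARNT, 9833 for shBMAL1 and 12591 for the direct contrast, and members called numbered 9, 6 and 9, as without it.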
